A study of Arabidopsis thaliana with 16 samples.

Results

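Protein-protected sites (PPSs) of salt-treated Arabidopsis thaliana rosette leaves were divided by the RNase that revealed them. A site was a dsRNase-only site when every call in it came from the libraries treated with the double-strand-specific dsRNase (RNase V1), and an ssRNase-only site when every call came from the libraries treated with the single-strand-specific ssRNase. Replicate 1 listed 18310 dsRNase-only and 11663 ssRNase-only sites among 32443 sites, and replicate 2 listed 13619 dsRNase-only and 11048 ssRNase-only sites among 26188. Sites with calls of both RNases, 2470 in replicate 1 and 1521 in replicate 2, were in neither group. The 2 groups together held 54640 of the 58631 sites of salt-treated leaves, and the 4 lists of the series, which holds control-treated leaves as well, had 122224 sites.

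The study used protein interaction profile sequencing (PIP-seq) on nuclei of 4-week-old rosette leaves. All plants were UBQ10:NTF/ACT2p:BirA in the Columbia-0 ecotype, a transgenic pair that puts a biotin tag on the nuclear envelope so that nuclei can be pulled from crude lysate on streptavidin beads (INTACT). Salt-treated and control-treated plants carried the same transgenes, leaves were crosslinked with formaldehyde, and salt-treated plants had been watered with NaCl over a long period. Each of the 2 nuclei preparations of salt-treated leaves gave 4 libraries, namely a footprinting library digested with RNase while proteins were still bound and a structure-only library digested after protein removal, each with dsRNase and with ssRNase. Both RNases of 1 replicate therefore came from the same nuclei, and the 2 nucleases were compared within a replicate. With 2 preparations, an exact permutation test of the difference between RNases cannot pass 0.05, so no test was run and every value below is a description with its 2 replicate values.

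An RNA-binding protein shields the bases it covers from a nuclease. A nuclease can reveal a shield only where it would otherwise cut, so dsRNase reports shields over base-paired RNA and ssRNase reports shields over unpaired RNA, and PIP-seq joins both views. In the nucleus the bound RNAs include unspliced precursors, on which the splicing machinery, SR proteins and the exon junction complex sit at or near exon borders. The structure score used below was built from the structure-only libraries, and a positive score marks a base read as more paired than the mean of its transcript, a negative score a base read as less paired.

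The lists shared calls, which bears on all that follows. Of the dsRNase-only sites of replicate 1, 9556 (52.2%) stood in the list of replicate 2 with the same start, end and score, and 5238 (44.9%) of its ssRNase-only sites did so. All of these pairs were on opposite strands. The same pairs made up 70.2% of the dsRNase-only and 47.4% of the ssRNase-only sites of replicate 2. The 2 replicate lists were therefore not separate. Each SD given below does not measure the spread between independent preparations. Salt and control lists shared calls too. Sites whose position and score stood in no other list numbered 5773 dsRNase-only and 1970 ssRNase-only in replicate 1, and 4032 dsRNase-only and 2430 ssRNase-only in replicate 2. The name of the RNase was not always the same: 3380 ssRNase-only sites of replicate 2 (30.6%) were listed as dsRNase calls in control-treated replicate 1. Their median length of 61 nt was that of the other ssRNase-only sites of the replicate, and their intron share was 11.6%, beside 12.5% for those other sites. Their structure score in the control-treated table, described below, differed, at -0.0138 for the sites listed under dsRNase elsewhere, against -0.255 for the other ssRNase-only sites.

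The lists also had long stretches with sites of 1 RNase only. Genes were binned into windows of 1 Mb on each strand. In replicate 1, 23 of 228 such windows held no dsRNase-only site beside 20 or more ssRNase-only sites, and 30 held 20 or more dsRNase-only sites and no ssRNase-only site. In replicate 2 these numbers were 7 and 42 of 211. At least 5 sites of each RNase were present in 116 windows of replicate 1, in 101 of replicate 2, and in 29 windows of both. These windows are the stretches with both RNases used below. Such a window could still contain a shorter part without sites of 1 RNase. The strand column followed the gene for 72.2% of dsRNase-only and 98.5% of ssRNase-only sites in replicate 1, and for 65.5% of dsRNase-only and 44.3% of ssRNase-only sites in replicate 2, so features were read on either strand. Results are given for all sites and, where they differ, for sites in no other list and for stretches with both RNases.

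Examples of single-RNase sites follow, to show the RNA under single calls and how far their base content varies. Each lies wholly in the CDS of a gene with many sites, had the same start, end and score in both replicates, and is printed 5′ to 3′ on the strand of the gene from the RefSeq copy of the TAIR10 genome, with the site in capitals and 15 flanking bases on each side in lower case. The lists had each on the plus strand in replicate 1 and on the minus strand in replicate 2. They are thus shared calls as described above, not separate findings of 2 replicates. The strand named below is that of the gene. The dsRNase-only sites were in AT1G48090 (chr1:17748300-17748351, minus strand), AT4G17140 (chr4:9618509-9618552, minus strand), the casein kinase gene ckl12 (chr5:23074413-23074442, plus strand) and the auxin response factor gene ARF2 (chr5:24914527-24914602, plus strand). The ssRNase-only sites were in AT1G02080 (chr1:374430-374477, plus strand), THO2 (chr1:8753878-8753963, plus strand), which encodes a subunit of the THO complex of mRNA export, and AT4G39420 (chr4:18341765-18341826, plus strand).
AT1G48090, dsRNase-only: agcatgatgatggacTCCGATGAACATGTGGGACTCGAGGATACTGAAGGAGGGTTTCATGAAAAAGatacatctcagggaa
AT4G17140, dsRNase-only: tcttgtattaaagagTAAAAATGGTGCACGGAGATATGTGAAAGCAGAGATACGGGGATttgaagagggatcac
ckl12, dsRNase-only: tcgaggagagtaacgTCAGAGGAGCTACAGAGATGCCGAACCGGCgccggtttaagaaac
ARF2, dsRNase-only: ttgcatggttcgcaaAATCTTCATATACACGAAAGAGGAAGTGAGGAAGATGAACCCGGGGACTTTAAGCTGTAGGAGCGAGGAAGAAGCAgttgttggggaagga
AT1G02080, ssRNase-only: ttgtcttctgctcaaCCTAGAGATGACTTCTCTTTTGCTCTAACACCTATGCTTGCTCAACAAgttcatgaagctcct
THO2, ssRNase-only: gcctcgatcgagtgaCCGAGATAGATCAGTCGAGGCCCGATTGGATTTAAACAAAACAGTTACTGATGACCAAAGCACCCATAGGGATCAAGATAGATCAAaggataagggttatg
AT4G39420, ssRNase-only: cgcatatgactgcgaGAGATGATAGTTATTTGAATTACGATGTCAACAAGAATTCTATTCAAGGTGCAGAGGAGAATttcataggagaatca
The capitals of AT4G17140 held 34.1% G and 9.09% C, and those of ckl12 33.3% G and 26.7% C. The capitals of AT1G02080 held 12.5% G and 29.2% C, whereas those of AT4G39420 held 24.2% G and 9.68% C, so single sites of either RNase varied widely in content and need not follow the group means given below.

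The sites of the dsRNase were shorter. Their median length was 46 nt in replicate 1 and 50 nt in replicate 2, against 60 nt and 61 nt for ssRNase-only sites, a mean difference of -12.5 nt ± 2.12 (SD, n = 2). The quartiles of dsRNase-only sites were 37 to 60 nt in replicate 1 and 40 to 65 nt in replicate 2, against 47 to 79 nt and 48 to 81 nt for ssRNase-only sites, so the distributions overlapped broadly. Only 3.94% and 5.24% of dsRNase-only sites reached 100 nt, compared to 12.0% and 13.4% of ssRNase-only sites. The share of dsRNase-only sites among all single-RNase sites was 79.8% in replicate 1 and 72.3% in replicate 2 for sites of 30 to 39 nt, and 34.0% and 32.5% for sites of 100 nt or more. The difference was -15 and -8 nt among sites in no other list and -13 and -12 nt in stretches with both RNases. It was also present within genes. Among genes with at least 3 sites of each RNase wholly in the CDS, the mean length of dsRNase-only sites was below that of ssRNase-only sites in 175 of 212 genes in replicate 1 and in 171 of 190 genes in replicate 2.

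**Figure D1:**
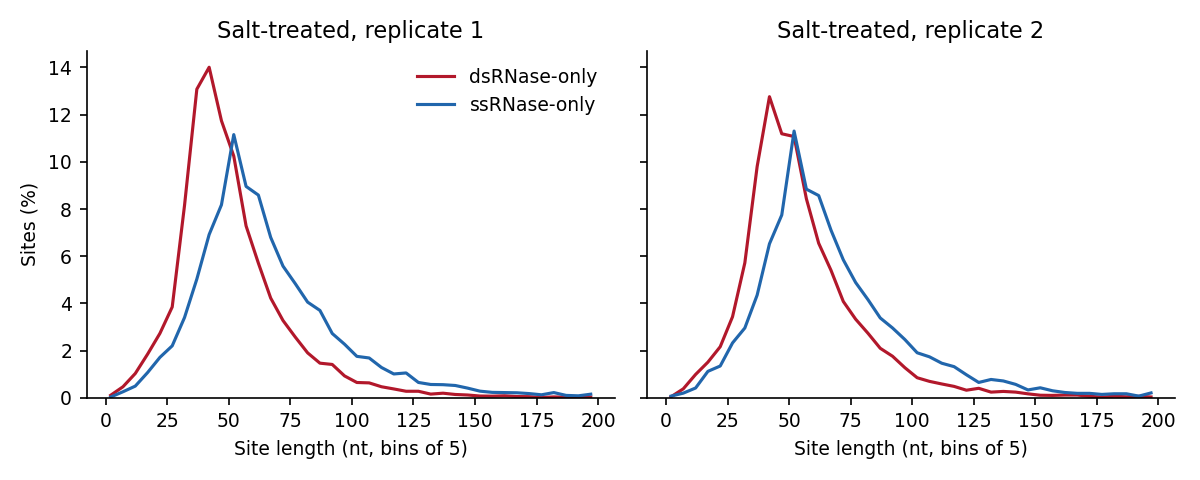
Share of sites (percent, vertical axis) by site length in bins of 5 nt (horizontal axis) for dsRNase-only sites in red and ssRNase-only sites in blue, 1 panel per replicate of salt-treated leaves. The red curve lies to the left of the blue one in both replicates, with medians of 46 and 50 nt for dsRNase-only and 60 and 61 nt for ssRNase-only sites.

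In site number the 2 replicates did not give a common ratio. The log2 ratio of dsRNase-only to ssRNase-only sites was 0.65 in replicate 1 and 0.30 in replicate 2, with a mean of 0.48 ± 0.25 (SD, n = 2). In stretches with both RNases the ratio was 0.91 in replicate 1, from 9675 dsRNase-only and 5159 ssRNase-only sites, and 0.0094 in replicate 2, from 6798 dsRNase-only and 6754 ssRNase-only sites. Without sites that had the same start and end in both replicates, it was 0.44 in replicate 1 and -0.52 in replicate 2. The enrichment score of a site differed little between the nucleases. The median was 8.14 in replicate 1 and 8.20 in replicate 2 for dsRNase-only sites, against 8.30 and 8.39 for ssRNase-only sites, while the lowest listed score was 5.57 for dsRNase-only sites of both replicates, against 6.21 and 6.37 for ssRNase-only sites. Since the lowest listed score differed between the RNases, scores were not compared further. Organelle genomes held few of these sites. The chloroplast had 39 and 32 dsRNase-only sites, against 14 and 16 ssRNase-only sites, the mitochondrion had 16 and 11, against 2 and 3, and the values below are for nuclear chromosomes.

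Within protein-coding genes, dsRNase-only sites were more often intronic and less often in the CDS. Each feature that a site touched was counted once, so shares are percentages of feature assignments. The intron share was 23.8% in replicate 1 and 24.9% in replicate 2 for dsRNase-only sites, against 13.1% and 12.2% for ssRNase-only sites, a mean difference of 11.7 percentage points ± 1.41 (SD, n = 2). The CDS share was 65.9% and 64.9% for dsRNase-only sites, against 75.1% and 76.7% for ssRNase-only sites, a difference of -10.5 points ± 1.86. The 5′ UTR took 4.78% and 4.90% of dsRNase-only assignments, against 6.19% and 5.84% of ssRNase-only ones. The 3′ UTR shares lay between 5.22% and 5.62% in all 4 sets. Among sites in no other list, the intron share differed by 6.29 points in replicate 1 and 12.3 points in replicate 2, and in stretches with both RNases by 9.93 and 13.5 points. For sites of 40 to 59 nt alone, a class in which dsRNase-only sites were still the shorter ones, the intron difference was 10.3 and 10.6 points. Sites that cross a boundary count for both features in these shares. With 1 feature per site, under its middle base, the intron difference was smaller, at 6.14 and 7.41 points. The CDS difference was then -6.02 and -8.30 points.

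**Figure D2:**
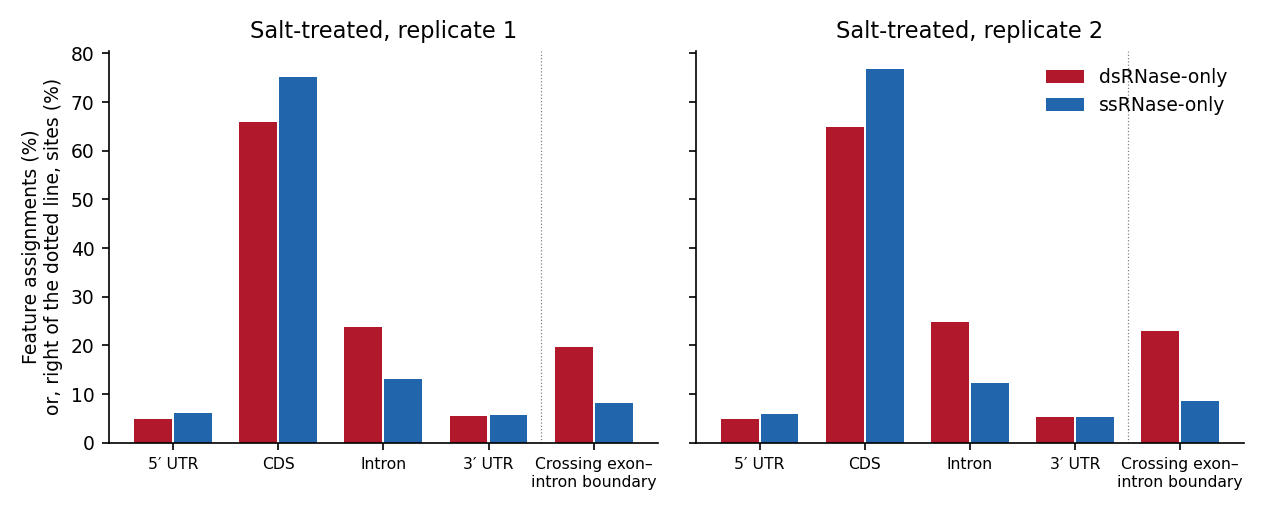
Percent of feature assignments in each transcript region and, right of the dotted line, percent of sites over a transcript model that cross an exon–intron boundary, for dsRNase-only sites (red, left bar) and ssRNase-only sites (blue, right bar) in each replicate. Introns and boundary crossings are higher for dsRNase-only sites and the CDS is higher for ssRNase-only sites in both replicates.

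The groups also differed at exon borders. A site crossed an exon–intron boundary in 19.7% of dsRNase-only sites over a transcript model in replicate 1 and in 23.1% in replicate 2, against 8.20% and 8.68% of ssRNase-only sites. The gap widened with length: for sites of 100 nt or more, 54.3% and 56.6% of dsRNase-only sites crossed a boundary, compared to 15.0% and 16.8% of ssRNase-only sites. For sites of 40 to 59 nt the values were 16.6% and 17.5% for dsRNase-only sites, against 5.85% and 6.05% for ssRNase-only sites. Among sites in no other list, 12.98% and 21.8% of dsRNase-only sites crossed a boundary, against 9.08% and 7.69% of ssRNase-only sites, and the difference of replicate 1 was 3.89 points there.

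The placement of the sites around 62481 introns of first-listed isoforms was followed base by base. Upstream of the 5′ splice site, coverage by dsRNase-only sites peaked 19 nt before the exon end in replicate 1, where 9.06% of exon ends were covered, and 20 nt before it in replicate 2, at 7.45%. Coverage by ssRNase-only sites had a lower and broader peak, 3.52% at 31 nt and 3.28% at 33 nt before the exon end. From 51 to 100 nt before the exon end the 2 RNases were close, with means of 2.48% and 2.11% for dsRNase-only sites, against 2.16% and 2.104% for ssRNase-only sites. The first 10 intron bases were covered at 2.16% and 1.99% by dsRNase-only sites, against 0.534% and 0.550% by ssRNase-only sites. Downstream of the 3′ splice site, exon bases 11 to 50 were covered at 4.41% and 3.66% by dsRNase-only sites, against 2.58% and 2.54% by ssRNase-only sites. The excess of dsRNase-only coverage was thus larger before the 5′ splice site than after the 3′ splice site in both replicates. Coverage scales with the number of sites, so its level was not comparable between RNases in full lists, but the shape was also seen in stretches with both RNases. There, coverage 50 to 11 nt before the exon end was 5.50% and 4.34% for dsRNase-only and 1.96% and 2.60% for ssRNase-only sites. From 100 to 51 nt before it, coverage was 1.78% and 1.296% for dsRNase-only and 1.31% and 1.72% for ssRNase-only sites. These values are percentages of all 62481 exon ends, including those outside such stretches. They therefore understate coverage inside the stretches, and their levels are not comparable between replicates.

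**Figure D3:**
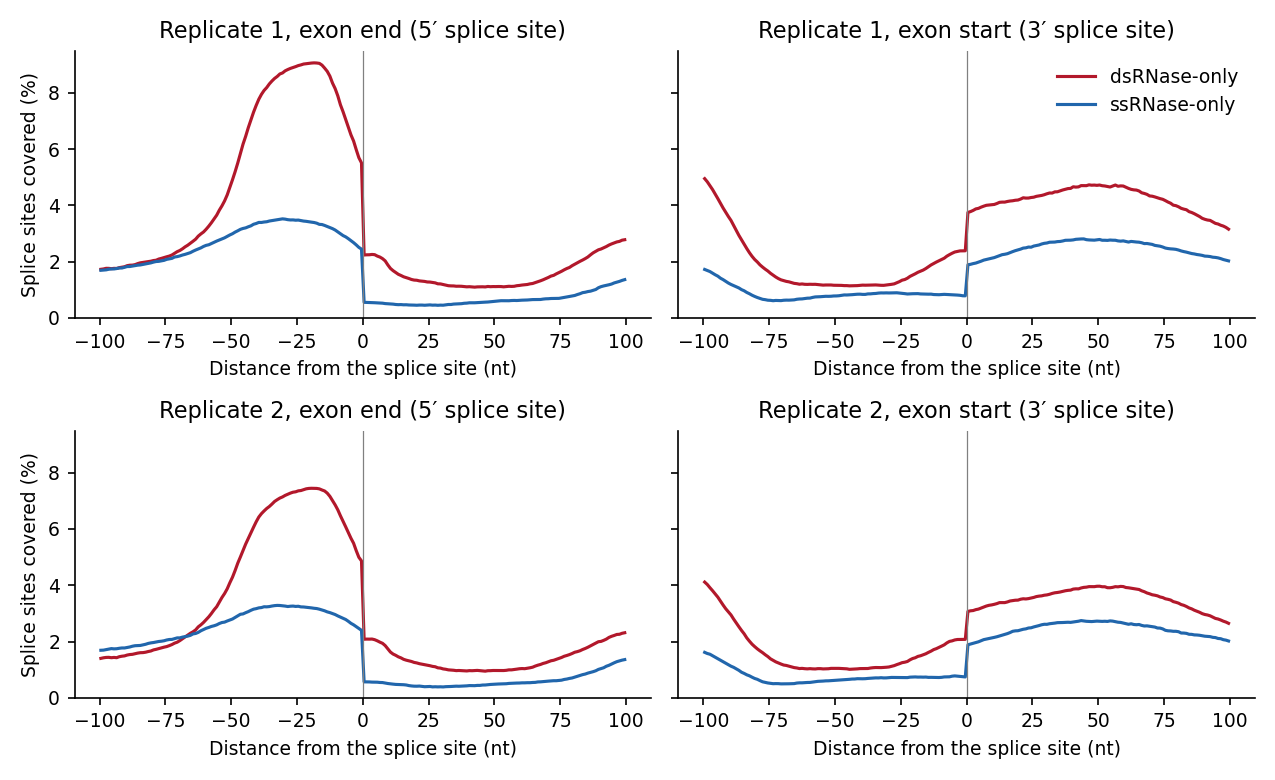
Percent of splice sites covered by a site at each base (vertical axis) by distance in nt from the splice site along the gene (horizontal axis, introns to the right of 0 at the exon end and to the left of 0 at the exon start), for dsRNase-only sites in red and ssRNase-only sites in blue, replicate 1 above replicate 2. The red curve peaks about 20 nt before the exon end at 9.06% and 7.45%, and the blue curve at 3.52% and 3.28%.

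Sites wholly inside introns were placed differently from those at the borders. They numbered 1369 dsRNase-only and 577 ssRNase-only in replicate 1, and 930 dsRNase-only and 447 ssRNase-only in replicate 2, counting introns of first-listed isoforms. The ssRNase-only sites were gathered near the 3′ splice site. Among dsRNase-only sites, 12.1% (165 sites) in replicate 1 and 14.2% (132 sites) in replicate 2 ended within 20 nt of the 3′ splice site, against 39.2% (226 sites) and 36.7% (164 sites) of ssRNase-only sites. The median distance to the 3′ splice site was 125 and 132 nt for dsRNase-only sites, compared to 39 and 56 nt for ssRNase-only sites. At the 5′ splice site the groups were alike, with 17.2% and 15.6% of dsRNase-only sites within 20 nt, against 15.6% and 14.5% of ssRNase-only sites. The introns themselves had median lengths of 365 and 397.5 nt under dsRNase-only sites, and 292 and 308 nt under ssRNase-only sites. In sites of no other list, 9.76% and 15.3% of dsRNase-only intron sites lay within 20 nt of the 3′ splice site, against 43.3% and 29.8% of ssRNase-only ones, and in stretches with both RNases 11.9% and 13.1%, against 39.2% and 35.3%.

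Along the spliced CDS, ssRNase-only sites were somewhat more frequent at the start. The first 10% of the CDS held 8.403% and 8.39% of dsRNase-only CDS sites, against 9.98% and 10.4% of ssRNase-only sites. The stretch from 80% to 90% of the CDS held 11.4% and 11.3% of dsRNase-only sites, against 10.2% and 9.87% of ssRNase-only sites. No interval of this width held less than 8.38% or more than 11.4% in any of the 4 sets. Start codons of 10003 genes were covered by dsRNase-only sites in 3.21% and 2.56% of genes, against 2.71% and 2.64% by ssRNase-only sites, so the replicates differed in order. Stop codons were covered in 1.54% and 1.33% of genes by dsRNase-only sites, against 1.65% and 1.61% by ssRNase-only sites.

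RNA structure under the sites was lower for dsRNase-only sites. The mean structure score was -0.276 in replicate 1 and -0.330 in replicate 2 for dsRNase-only sites, against -0.101 and -0.0509 for ssRNase-only sites, a mean difference of -0.227 ± 0.0734 (SD, n = 2) on a score that ran between -7.06 and 5.97. Scores covered 11369 and 8585 dsRNase-only and 7692 and 7524 ssRNase-only sites, since only exonic bases were scored. Flanks of equal length had mean scores of -0.0484 and -0.0548 beside dsRNase-only sites, against 0.0614 and 0.0606 beside ssRNase-only sites. Sites of either RNase thus had lower scores than their flanks, and the flanks differed as well, so that with the flank mean subtracted the difference between RNases was -0.0541 and -0.156. Of the dsRNase-only sites, 60.4% and 63.4% had a mean score below 0, against 56.6% and 53.5% of ssRNase-only sites. The structure-only libraries behind the score are also the background against which the sites were called, so the score is not independent of the RNase. The structure table of control-treated leaves comes from other libraries, and at the same bases it gave -0.410 and -0.473 under dsRNase-only sites, against -0.197 and -0.178 under ssRNase-only sites. This table is not free of the same limit, because 37.2% of dsRNase-only sites of replicate 1 and 49.3% of those of replicate 2 were identical to dsRNase calls of control-treated replicate 1, which had control libraries as background. For control-treated replicate 2 these shares were 37.4% and 29.1%. Of the ssRNase-only sites of replicate 1, 36.3% were identical to ssRNase calls of control-treated replicate 1 and 21.5% to those of control-treated replicate 2. Among sites in no other list the control-treated table gave -0.286 and -0.409 under dsRNase-only sites, against -0.236 and -0.201 under ssRNase-only sites.

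**Figure D4:**
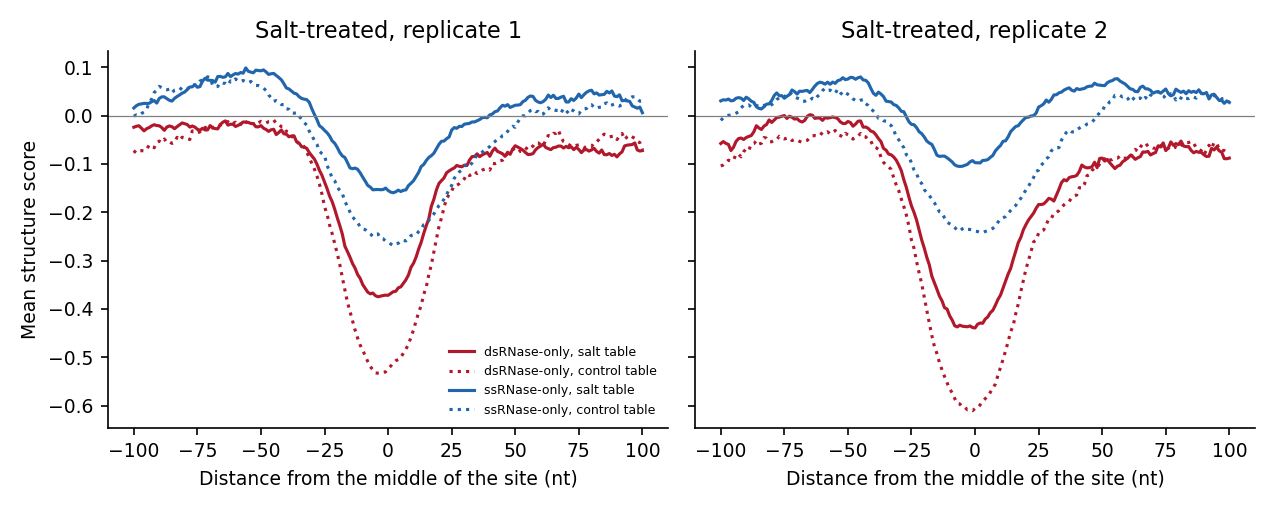
Mean structure score (vertical axis, higher is more paired) by distance in nt from the middle of the site along the gene (horizontal axis), for dsRNase-only sites in red and ssRNase-only sites in blue, with the salt-treated table as solid and the control-treated table as dotted lines, 1 panel per replicate. All curves dip at the site, and the red ones reach lower, with salt means within 10 nt of the middle of -0.357 and -0.421 for dsRNase-only and -0.150 and -0.0923 for ssRNase-only sites.

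The direction of the structure difference was the same in each transcript region when all sites were used. For sites wholly in the CDS the score was -0.250 and -0.316 under dsRNase-only sites, against -0.0792 and -0.0281 under ssRNase-only sites. In the 3′ UTR it was -0.555 and -0.589, against -0.301 and -0.316, and in the 5′ UTR -0.467 and -0.556, against -0.217 and -0.121. The 5′ UTR values rest on 284 and 206 dsRNase-only and 207 and 174 ssRNase-only sites. The difference depended on which sites were read in replicate 1. Among its sites in no other list the score was -0.176 under dsRNase-only and -0.176 under ssRNase-only sites, whereas in replicate 2 it was -0.296 under dsRNase-only and -0.0234 under ssRNase-only sites. Within the 212 genes of replicate 1 that had at least 3 CDS sites of each RNase, the mean was -0.0900 for dsRNase-only and -0.156 for ssRNase-only sites, which is the opposite order, and dsRNase-only sites were lower in 87 genes. Within the 190 such genes of replicate 2 it was -0.197 for dsRNase-only and -0.0449 for ssRNase-only sites, with dsRNase-only sites lower in 110 genes. With the control-treated table, dsRNase-only sites were lower in 125 of 212 and 122 of 190 genes. The lower structure score of dsRNase-only sites was thus not shown within genes by both replicates with the salt-treated table.

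**Figure D5:**
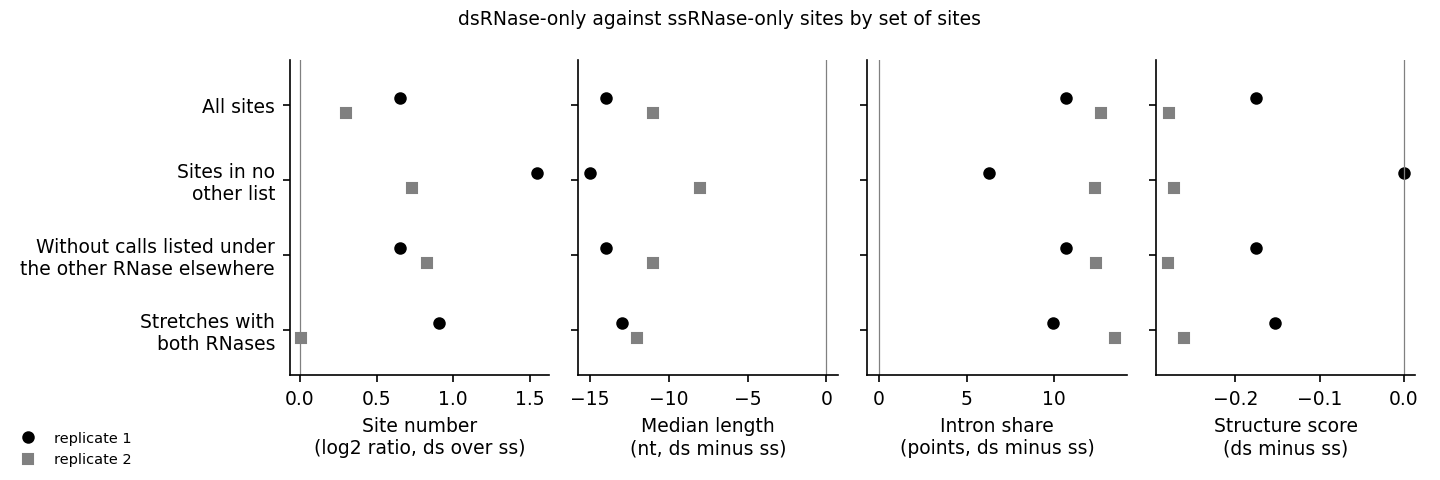
Difference between dsRNase-only and ssRNase-only sites (horizontal axes) in site number, median length, intron share and mean structure score for 4 sets of sites (rows), with replicate 1 as black circles and replicate 2 as grey squares and a line at 0. Length and intron share keep their side of 0 in each set, while the structure difference of replicate 1 is close to 0 among sites in no other list and the log2 ratio of site number is 0.0094 for replicate 2 in stretches with both RNases.

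The base content of the sites differed by base more than by GC content. Mean GC content was 42.6% and 42.3% for dsRNase-only sites, against 43.6% and 44.3% for ssRNase-only sites. Sites wholly in introns had a GC content of 33.6% to 34.2% in the 4 sets, and for sites wholly in the CDS it was 45.1% and 44.8% for dsRNase-only sites, against 45.3% and 45.8% for ssRNase-only sites. In stretches with both RNases the difference of replicate 1 was -0.251 points and that of replicate 2 -2.09 points. Among sites in no other list it was 0.112 points in replicate 1, the opposite direction, and -1.47 points in replicate 2. Within genes with at least 3 CDS sites of each RNase, mean GC content was 44.8% for dsRNase-only and 43.6% for ssRNase-only sites in replicate 1, and 43.7% for dsRNase-only and 44.6% for ssRNase-only sites in replicate 2, so the replicates differed in direction. Read on the strand of the gene, CDS sites of the dsRNase held less C and more G. C made up 16.6% and 16.1% of the bases of dsRNase-only CDS sites, against 19.7% and 19.4% of ssRNase-only ones, and 20.3% of all CDS bases in the salt table. G made up 28.6% and 28.9%, against 25.7% and 26.5%, and 24.3% of all CDS bases. Intron sites showed the same order, with 12.1% and 11.8% C for dsRNase-only sites against 15.4% and 14.9% for ssRNase-only sites, and 21.8% and 21.6% G against 18.6% and 19.2%. In sites of no other list the C difference in the CDS was -0.741 points in replicate 1 and -2.61 points in replicate 2. The base just after a CDS site was G for 41.0% and 44.1% of dsRNase-only sites, against 34.6% and 35.5% of ssRNase-only sites, and the base just before it was G for 23.5% to 24.6% in all 4 sets. For CDS sites in no other list, the base just after was G for 35.2% and 43.6% of dsRNase-only sites. It was G for 33.0% and 35.0% of such ssRNase-only sites, so the gap of replicate 1 was smaller there.

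All 64 trinucleotides were counted in any frame on the gene strand of CDS sites, and 24 were higher and 28 lower under dsRNase-only sites in both replicates. Among those higher were triplets made of A and G only, such as AGG. This triplet made up 2.09% and 2.13% of trinucleotides under dsRNase-only sites, against 1.60% and 1.70% under ssRNase-only sites and 1.51% in all CDS. GAG made up 3.29% and 3.45%, against 2.69% and 2.63%, with 2.23% in all CDS. At the other end, CCA made up 0.761% and 0.716% under dsRNase-only sites, against 1.25% and 1.19% under ssRNase-only sites and 1.37% in all CDS. CTC made up 0.856% and 0.824%, against 1.4002% and 1.34%, with 1.72% in all CDS. In AGG and GAG both groups were above all CDS, and in CCA and CTC both were below, with dsRNase-only sites farther from it each time. Trinucleotides were counted on all sites only, so calls shared by the 2 replicates entered both counts.

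Of 10003 nuclear coding genes, 5346 in replicate 1 and 4190 in replicate 2 had a single-RNase site. The stretches with sites of 1 RNase only limit how many genes can have both kinds. The counts of genes with both are therefore given as a description and not as a result about the genes. In replicate 1, 3700 genes had a dsRNase-only and 3145 an ssRNase-only site, and 1499 genes had both, which was 40.5% of the dsRNase genes and 47.7% of the ssRNase genes. In replicate 2, 3209 genes had a dsRNase-only and 2213 an ssRNase-only site, and 1232 had both (38.4% and 55.7%). Calls of both RNases that met on a strand had been joined into sites of both, so within a list only overlaps on opposite strands could remain, and 4.83% and 9.15% of dsRNase-only sites had one. Between replicates, 58.95% of dsRNase-only sites of replicate 1 overlapped a dsRNase-only site of replicate 2 and 3.06% an ssRNase-only one, while 11.9% of its ssRNase-only sites overlapped a dsRNase-only site of replicate 2 and 45.5% an ssRNase-only one. Leaving out calls identical to another list lowers the overlap with the same RNase by construction. Among sites in no other list, 13.3% of dsRNase-only sites of replicate 1 overlapped a dsRNase-only and 0.139% an ssRNase-only site of replicate 2. Of the 1970 ssRNase-only sites of replicate 1 in no other list, 34.0% overlapped a dsRNase-only and 1.78% an ssRNase-only site of replicate 2. Of the 2430 such ssRNase-only sites of replicate 2, 4.07% overlapped a dsRNase-only and 6.26% an ssRNase-only site of replicate 1. Of the 4032 such dsRNase-only sites of replicate 2, 16.4% overlapped a dsRNase-only and 13.7% an ssRNase-only site of replicate 1. Sites in no other list were thus free of identical calls only, and some lay over calls of the other RNase in the other replicate.

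A gene was said to lean to an RNase when at least 2/3 of its single-RNase sites were of that RNase in both replicates, among genes with at least 5 such sites in each. Of 774 genes, 348 leaned to dsRNase sites (45.0%) and 192 to ssRNase sites (24.8%). These numbers were set in part by the stretches with sites of 1 RNase only. Of the 187 genes in stretches with both RNases in both replicates, 75 leaned to dsRNase sites (40.1%) and 24 to ssRNase sites (12.8%). These shares were still affected by shorter parts without sites of 1 RNase. For example, the neighbouring genes SNL2, SEC10 and GILP had 5, 2 and 2 ssRNase-only sites in replicate 1 and 0 each in replicate 2. In replicate 1 alone, 57.3% of 1062 genes in such stretches had 2/3 or more dsRNase-only sites and 12.7% had 2/3 or more ssRNase-only sites, whereas in replicate 2 alone 30.2% and 37.9% of 980 genes did. Of the 18 genes named by rank, 1 was in a stretch with both RNases in both replicates, 13 in 1 replicate and 4 in neither.

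The genes with the most dsRNase-only sites were AT4G17140, ARF2, MOR1, Tudor2 and AT4G33150. AT4G17140 had 40 dsRNase-only and 57 ssRNase-only sites in replicate 1, and 29 dsRNase-only and 0 ssRNase-only sites in replicate 2. ARF2 had 28 and 36 dsRNase-only sites, against 0 and 11 ssRNase-only sites. MOR1, which encodes a microtubule-associated protein, had 26 dsRNase-only sites in each replicate, against 0 and 15 ssRNase-only sites. Tudor2, a Tudor-domain nuclease gene, had 23 and 34, against 0 and 4, and AT4G33150, the bifunctional enzyme of lysine breakdown, had 22 and 22, against 21 and 0. In each of these 5 genes the count of 0 stood in a replicate whose stretch did not hold both RNases. The genes with the most ssRNase-only sites were AT1G58602, AT1G58848, AT1G02080, AT4G31570 and AT4G39420. AT1G58602, a disease resistance gene, had 0 and 27 dsRNase-only sites, against 37 and 36 ssRNase-only sites, and AT1G58848 had 0 and 8, against 25 and 25. These 2 genes belong to a cluster of close copies, so reads may be shared between them and the counts are uncertain. AT4G31570 had no dsRNase-only site, against 23 and 38 ssRNase-only sites. AT4G39420 had none, against 21 and 37, and the stretches of these 2 genes held both RNases in neither replicate. AT1G02080 had 0 and 5, against 24 and 35, in a stretch that held both RNases in replicate 2.

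By share, GGT1, the aminotransferase of the photorespiratory pathway, had 24 and 13 dsRNase-only sites and 0 ssRNase-only sites in both replicates. Its stretch held both RNases in replicate 1 but not in replicate 2. CIPK9, a kinase of potassium signalling, had 35 and 17 dsRNase-only sites, against 1 and 0 ssRNase-only sites, in a stretch of the same kind. The pyruvate dehydrogenase gene MAB1 had 13 and 17 dsRNase-only sites and 0 ssRNase-only sites, and ckl12 had 10 and 15 and 0, both in stretches that held both RNases in replicate 2. AT1G48090 had 42 and 15 dsRNase-only sites and 0 ssRNase-only sites, in a stretch that held both RNases in neither replicate. At the low end, RLP19, a receptor-like protein gene, had 0 and 1 dsRNase-only sites, against 16 and 18 ssRNase-only sites, and was the 1 gene of these ranks whose stretch held both RNases in both replicates. SDG2, a histone H3 lysine methyltransferase gene, had 0 dsRNase-only sites, against 12 and 13 ssRNase-only sites, and THO2 had 0 and 1, against 15 and 20. The stretch of SDG2 held both RNases in neither replicate and that of THO2 in replicate 2.

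The following genes were picked, after their values were seen, from stretches with both RNases in both replicates. Being in such a stretch does not ensure that calls of both RNases were present close to the gene. TPI, a triosephosphate isomerase gene of glycolysis, had 17 and 21 dsRNase-only sites, against 1 and 4 ssRNase-only sites. VPS35A, a retromer subunit, had 12 and 14, against 2 and 3, and the transportin TRN1 had 11 and 14, against 3 and 4. pEARLI4 leaned the other way with 3 and 4 dsRNase-only sites, against 11 and 19 ssRNase-only sites, as did the callose synthase GSL05 with 4 and 6, against 9 and 13. HA1, a plasma membrane proton pump, had 7 and 10 dsRNase-only sites, against 9 and 14 ssRNase-only sites, and leaned to neither. SR1, a calmodulin-binding transcription activator gene and no splicing factor, had 16 and 13 dsRNase-only sites, against 0 and 22 ssRNase-only sites. Nearby genes on the same strand, SVP and SNG1 among them, also had 0 ssRNase-only sites in replicate 1, beside 3 and 9 in replicate 2. The 0 of SR1 therefore cannot be read as a property of this gene or as a disagreement between replicates.

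Of 12 HSP70 and HSP90 chaperone genes, all in the structure table, 7 had 5 or more single-RNase sites in each replicate and 6 of these leaned to dsRNase sites, beside 45.0% of all such genes. Their summed counts were 103 and 94 dsRNase-only sites, against 20 and 8 ssRNase-only sites. HSC70-1, the main cytosolic HSP70, had 15 and 10 dsRNase-only sites, against 1 and 0 ssRNase-only sites, and BIP1, an HSP70 of the endoplasmic reticulum, had 17 and 13, against 2 and 0. The related BIP2 had 19 and 11 dsRNase-only sites, against 4 and 0 ssRNase-only sites, and shares much of its sequence with BIP1, so their counts are not separate evidence. SHD, the HSP90 of the endoplasmic reticulum, had 11 and 9 dsRNase-only sites, against 1 and 0, and was the member of the 7 whose stretch held both RNases in both replicates. Nearby genes on its strand, LACS4 and FC2 among them, also had 0 ssRNase-only sites in replicate 2, beside 13 and 9 in replicate 1. The 0 of SHD in replicate 2 therefore cannot be read as a property of this gene. In stretches with both RNases, 5 of 7 members with 5 or more sites had 2/3 or more dsRNase-only sites in replicate 1 and 3 of 3 in replicate 2, beside 57.3% and 30.2% of all genes in such stretches.

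Among SR and RS splicing factors, which bind exonic sequences and help to choose splice sites, 5 of 19 genes in the table had enough sites, 4 leaned to dsRNase sites, beside 45.0% of all such genes, and SR34b leaned to neither. Of these 5 genes, SR34b was the only member whose stretch held both RNases in both replicates. None of the 4 that leaned was in such a stretch. RS41 had 10 and 13 dsRNase-only sites, against 0 and 1 ssRNase-only sites, SR30 had 13 and 9, against 2 and 0, and RSZ22a had 6 and 6, against 0 and 2. In stretches with both RNases, 4 of 5 members in replicate 1 and 3 of 7 in replicate 2 had 2/3 or more dsRNase-only sites, beside 57.3% and 30.2% of all genes in such stretches. In the salt and ABA response list, 3 of 17 genes had enough sites and all 3 leaned to dsRNase sites, beside 45.0% of all such genes: LTI78, the stress reporter gene also named RD29A, with 13 and 16 dsRNase-only sites against 1 ssRNase-only site in replicate 2 and 0 in replicate 1, RD22 with 10 and 5 against 1 and 0, and the dehydrin gene ERD10 with 6 and 5 against 1 and 0. None of these 3 was in a stretch with both RNases in both replicates. In stretches with both RNases, 3 of 6 members of the list had 2/3 or more dsRNase-only sites and 2 had 2/3 or more ssRNase-only sites in replicate 1, and 2 of 3 had 2/3 or more dsRNase-only sites in replicate 2, beside 57.3% and 30.2% of all genes with 2/3 or more dsRNase-only sites. P5CS1, the enzyme of the committed step of proline synthesis, had 5 dsRNase-only and 11 ssRNase-only sites in replicate 1 and 0 of either in replicate 2, where its stretch did not hold both RNases.

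Other lists had few genes with enough sites, too few to set against the 45.0% and 24.8% of all genes that leaned to either RNase. LHCA4 and LHCA2, antenna proteins of photosystem I, leaned to dsRNase sites, with 10 and 7 dsRNase-only against 2 and 0 ssRNase-only sites for LHCA4 and 4 and 6 against 1 and 2 for LHCA2. Of the photorespiration genes, GGT1 leaned to dsRNase sites and the glutamate synthase GLU1 to ssRNase sites, with 0 and 3 dsRNase-only against 7 and 12 ssRNase-only sites. In stretches with both RNases in replicate 1, 3 of 5 light-harvesting and Rubisco genes and 1 of 3 photorespiration genes had 2/3 or more dsRNase-only sites, against 0 and 1 with 2/3 or more ssRNase-only sites. In replicate 2 these were 1 of 4 and 0 of 3 genes with 2/3 or more dsRNase-only sites, against 2 and 3 with 2/3 or more ssRNase-only sites. The chromatin remodelling ATPase INO80 had 2 and 5 dsRNase-only sites, against 4 and 13 ssRNase-only sites, in a stretch with both RNases in both replicates. All 6 leaf mesophyll markers looked for were in the structure table, which keeps transcripts with enough reads, and none of the 3 root markers was.

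The highest-scoring dsRNase-only site of replicate 1 was chr1:16136841-16137080, with a score of 58.5, over no gene of the table. That of replicate 2 was chr5:25111403-25111609 in the CDS of AT5G62560, with a score of 58.5. The highest-scoring ssRNase-only site of replicate 1 was chr1:5848966-5849055 in the CDS of UBP15, a ubiquitin-specific protease gene, with a score of 50.3, and that of replicate 2 was chr4:18027169-18027339 in AT4G38550, with a score of 54.1. Of these 4 sites the one in AT5G62560 stood in no other list.

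The control-treated lists are set beside these values for reference, although they share calls with the salt-treated ones. The median length difference was -11 to -14 nt in the salt-treated replicates, against -8 nt in both control-treated replicates. The intron share differed by 10.7 and 12.7 points in salt-treated replicates, against 5.82 and 14.4 points in control-treated replicates, and the structure score by -0.175 and -0.279, against -0.0652 and -0.1996. Among control-treated sites in no other list, the intron share differed by -4.70 and 13.9 points. The structure score of those sites differed by 0.0229 and -0.225, so control-treated replicate 1 had the opposite direction in both. The log2 ratio of site number was 0.65 and 0.30 in salt-treated replicates, against 0.65 and -0.30 in control-treated replicates. Whether the contrast between RNases differed between salt-treated and control-treated leaves was not tested.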

How the data were processed

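PIP-seq libraries of nuclei from salt-treated and control-treated leaves were processed by the authors: adapters were trimmed with cutadapt (version 1.2.1 per the submitters' processing notes), reads were mapped to TAIR10 with TopHat2 2.0.10, and PPSs were called per RNase as footprinting over structure-only coverage at a false discovery rate of 5%. Overlapping calls of a replicate were joined. The authors deposited 1 list per replicate with an enrichment score per call, and 1 table per condition with a structure score per exonic base, a generalized log ratio of the 2 structure-only libraries with replicates merged, scaled to the transcript mean. Read counts behind a site are not in the values used, so depth is unknown and no interval was given.

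Here the lists were read with Python 3.11.15 and numpy 2.4.6. Sites were placed on 15145 transcript models of the salt table (10003 nuclear coding genes) on either strand. A site had a structure score when at least 50% of its bases were scored. RefSeq TAIR10.1 gave sequences and gene names. Values are dsRNase-only minus ssRNase-only per replicate. An exact permutation test of 2 against 2 values cannot pass 0.05, and tests that assume a normal distribution were not used at this number, so no test was run, and the replicates' spread may be technical in part. The summaries were checked on simulated data, where 6 of 6 planted values were recovered.

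Genes were named as the 5 with the most sites of each RNase, the 5 highest and 5 lowest by dsRNase-only share among genes with 10 or more single-RNase sites in each replicate, the genes of the highest-scoring sites, up to 4 genes with 5 or more sites from each of 6 lists, and P5CS1. The members, lists and rules were chosen with earlier results of these data known. Long noncoding RNA tables were not used.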

Additional observations from a re-analysis of the deposited data

How the results depend on the processing

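The 6 main differences were recomputed under 21 settings, which gave 78 values. Of these, 63 moved by less than the SD between replicates, 14 by more and 1 changed sign. Leaving out a replicate always moves the mean by less than that SD. Those values were therefore among the 63 by construction and do not bear on how stable the differences were. Each value is the mean of differences taken within a replicate, whose RNases share nuclei, and no test, paired or unpaired, was run on them. The log2 ratio of site number, 0.48, turned to -0.039 without sites of the same start and end in both replicates, and was 1.14 with sites in no other list and 0.74 without sites listed under the other RNase elsewhere. Leaving out a replicate gave 0.30 to 0.65. With sites of both RNases counted in both groups, the CDS share difference was -8.60 points and the intron share difference 9.49 points. With 1 feature per site they were -7.16 and 6.77 points, and with sites in no other list -8.34 and 9.30 points. The structure score difference was -0.105 with the flank mean subtracted, -0.137 with sites in no other list and -0.129 with those sites and the control-treated table. The GC content difference was -0.574 points without sites of the same start and end in both replicates, -0.619 points inside the CDS and -0.679 points with sites in no other list. The median length difference lay between -14 and -11 nt in every setting. Genes leaning to dsRNase sites numbered 348, 4 without sites of the same start and end in both replicates, and 1 with sites in no other list, and genes leaning to ssRNase sites 192, 0 and 0. These counts were 156 and 62 with sites at or above the median score, and 75 and 23 when only sites in stretches with both RNases were counted. How many genes still had enough sites to be judged was not recorded under the changed settings. A lower count may therefore only mean that fewer genes could be judged, and the counts cannot be read as shares. The settings on shared calls, on stretches with both RNases and on sites of 40 to 59 nt were chosen after seeing the data. The cause of the shared calls and of the empty stretches was not tested. Their presence limits any statement on site number or on single genes.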

Other observations

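Sites with calls of both RNases were in neither group. Their median length was 82 nt in replicate 1 and 87 nt in replicate 2, and 33.6% and 38.2% of them reached 100 nt. Of those over a transcript model, 29.4% and 33.2% crossed an exon–intron boundary, and introns took 26.6% and 26.3% of their feature assignments. Their mean structure score was -0.230 and -0.254 with the salt-treated table. Joining calls makes a site longer by construction, so these lengths are not comparable with those of single-RNase sites.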
